A study of Saccharomyces cerevisiae with 5 samples.

Results

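Budding yeast genes that are still known by nothing but a systematic name were examined for their response to copper. The 39 members were chosen by their measured log2 ratios: a value on all 3 arrays, 1 sign on all 3, and a mean of at least 0.8 in size, which is 1.74-fold. They were drawn from 373 such genes with a value on every array, out of 444 with a spot, and out of 5379 genes on the array as a whole, of which 4824 had a value on every array. YHR054C, a frame in the repeat between the copper metallothionein genes, was left out by that rule. That limit lies below 2-fold, and 22 of the 39 had a mean of at least 2-fold, 15 of them higher and 7 lower after copper.

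Cells of Saccharomyces cerevisiae strain S288C, the reference laboratory strain, grew exponentially in rich YPD medium (2% polypeptone, 1% yeast extract and 2% glucose) at 25 °C. Treated cultures received copper(II) sulfate to 10 mM at an OD of 1 and were harvested 2 h later, and untreated cultures grew for the same 2 h without it. PolyA RNA of treated cells was labelled with Cy5 and that of untreated cells with Cy3 on each of 3 two-colour arrays, which the submitters describe as independent biological samples. No gene was deleted and no transgene was used, so the only labelled difference between the groups is copper. The dyes were never swapped, so a dye bias of a single gene cannot be told apart from an effect of copper.

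A systematic name records where a yeast reading frame lies: the chromosome as a letter, the left or right arm, a running number, and the Watson or Crick strand. Having that name alone does not mean that nothing is known of the gene's product. Yeast meets excess copper by inducing metallothioneins, small cysteine-rich proteins that bind the metal, through the activator Cup2, and by shutting down copper uptake when the activator Mac1 is no longer active. Ratios here are log2 of treated over untreated, a direction that is likely from the channel order in the labels but is not stated in the table.

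Of 6912 spots, 5367 held a value on array 1, 5264 on the high-power scan of array 2 and 5952 on that of array 3, and the number of arrays limits the precision. Genes with known copper responses were read as a check of direction. CRS5, a metallothionein gene, stood at 3.33, 3.84 and 1.82 on arrays 1, 2 and 3, and CTR1, the copper transporter gene, at -3.86, -3.47 and -2.06. With the opposite direction every value below would change sign. LOWESS centres each array, so a shift common to all mRNAs would not appear, and a change in the cells present cannot be told apart from a change in RNA per cell.

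The count of members is set by the rule and is a description. The same rule was met by 229 of 4824 genes upward (4.75%) and 181 downward (3.75%), and by 21 (5.63%) and 18 (4.83%) of the 373 genes with a systematic name only. Among 4450 genes with another name, 207 (4.65%) met it upward and 163 (3.66%) downward. In limma's test of the mean against 0, adjusted over all 4824 genes by the Benjamini-Hochberg method, 11.5% of genes were called higher and 12% lower. That test called all 21 members with positive means and 17 of the 18 with negative ones, which the choice of members on the same values largely fixes.

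**Figure D1:**
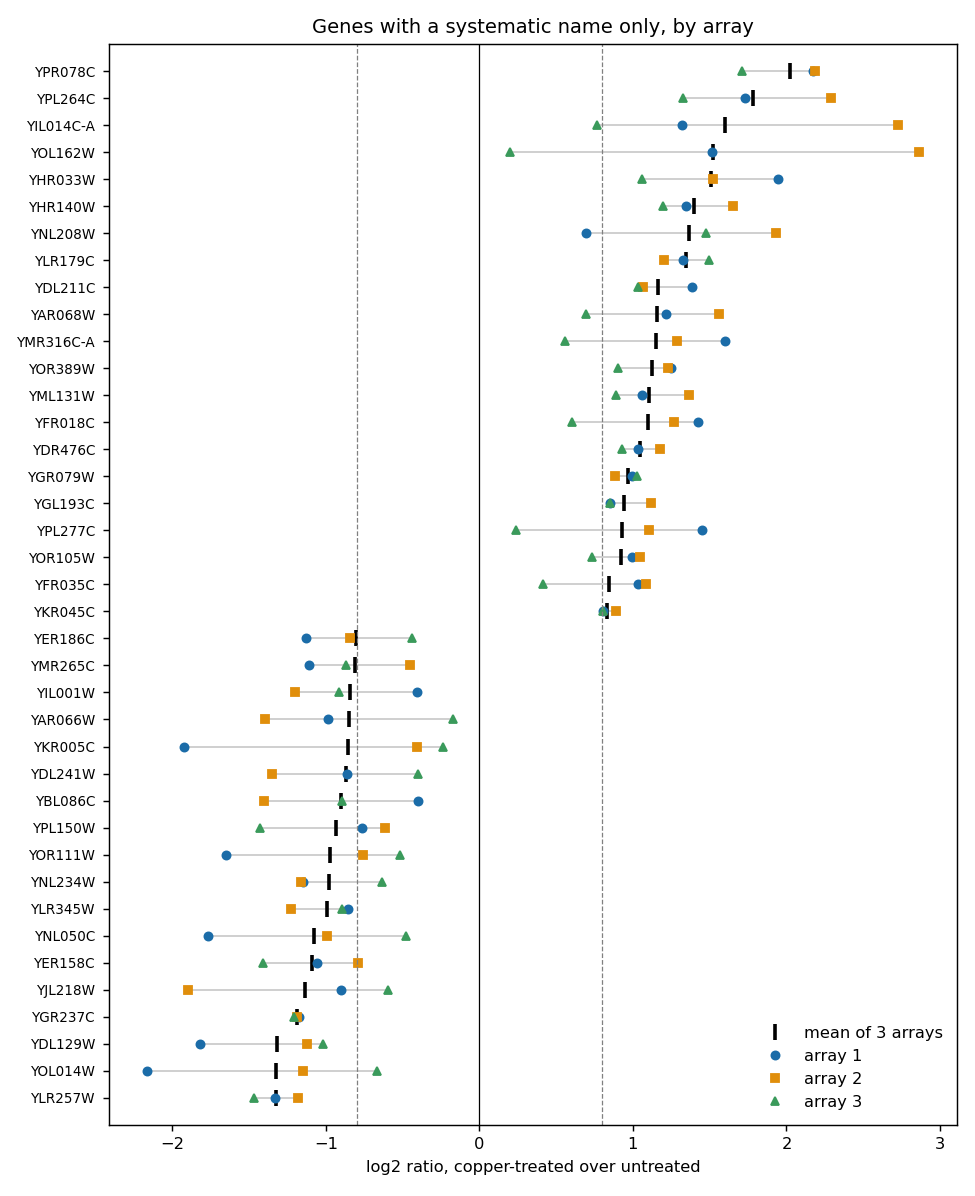
Log2 ratios of copper-treated over untreated cells for the 39 members, 1 row per gene ordered by mean, with a circle, square and triangle for arrays 1, 2 and 3, a black tick for the mean and a grey line for the range. Dashed lines stand at 0.8 and -0.8; the triangle of array 3 lies closest to 0 in 27 of the 39 genes.

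Genes without an assigned role headed the group that was higher after copper. YPR078C read 2.17, 2.19 and 1.71 on arrays 1, 2 and 3, a mean of 2.02 ± 0.27 (SD, n = 3) or 4.06-fold. YPL264C, which encodes a predicted membrane protein, read 1.73, 2.29 and 1.32, a mean of 1.78 ± 0.48 or 3.43-fold. Both genes stood above 1 on every array, and neither had a value on the low-power scans. YIL014C-A, a frame of 315 bases, read 1.32, 2.72 and 0.77 (mean 1.60 ± 1.01). YHR140W, another predicted membrane protein gene, read 1.34, 1.65 and 1.19 (mean 1.40 ± 0.23), and YNL208W read 0.70, 1.93 and 1.48 (mean 1.37 ± 0.62). Array 2 was the highest in these 3 genes, and without it the mean of YIL014C-A was 1.04 and that of YNL208W 1.09.

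Other genes of unassigned role were higher by smaller amounts. YMR316C-A read 1.60, 1.29 and 0.55 (mean 1.15 ± 0.54). YDR476C read 1.03, 1.18 and 0.93 (mean 1.05 ± 0.13), and YGR079W read 1.00, 0.88 and 1.03 (mean 0.97 ± 0.08). The last pair differed little between arrays, and both were read on the low-power scans too, at 1.37 and 0.84 for YDR476C and at 0.81 and 0.96 for YGR079W on arrays 2 and 3. YOR105W read 0.99, 1.05 and 0.73 (mean 0.92 ± 0.17), YFR035C read 1.03, 1.08 and 0.41 (mean 0.84 ± 0.37), and YKR045C read 0.81, 0.89 and 0.80 (mean 0.83 ± 0.05). YKR045C, nearest to the size limit, was the most even of the 21 genes.

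Enzyme and transporter relatives made up a second set of higher genes. YML131W, a member of the medium-chain dehydrogenase/reductase family, read 1.06, 1.37 and 0.89, a mean of 1.11 ± 0.24 or 2.15-fold. YFR018C, whose product resembles the human enzyme glutaminyl-peptide cyclotransferase, read 1.42, 1.27 and 0.60 (mean 1.10 ± 0.44). YOL162W, a relative of the allantoate permease gene DAL5, read 1.51, 2.86 and 0.20 (mean 1.52 ± 1.33). YOL162W thus had the widest spread of all 39 members, and its mean was 2.19 without array 3 and 0.86 without array 2. The adjacent relative YOL163W read 0.67, 1.04 and 0.10 in the same order of arrays, a mean of 0.60 ± 0.48 that did not pass the test (limma adjusted p = 0.0566). DAL5 itself read -0.53 and -0.09 on arrays 1 and 3 and had no value on array 2.

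Several higher genes are duplicates of a named gene, and the duplicates did not all read alike. Their named partners were picked here for that relation, after their values had been seen. YHR033W, a duplicate of the proline synthesis gene PRO1, read 1.94, 1.52 and 1.06 (mean 1.51 ± 0.44 or 2.84-fold), against -0.37, -0.35 and 0.06 for PRO1 (mean -0.22 ± 0.25, limma adjusted p = 0.331). YDL211C, a duplicate of TDA7, read 1.38, 1.06 and 1.04 (mean 1.16 ± 0.19), and TDA7 read 0.54, 0.58 and 0.42 (mean 0.51 ± 0.08, limma adjusted p = 0.0359). YLR179C read 1.33, 1.20 and 1.49 (mean 1.34 ± 0.15 or 2.54-fold), and its adjacent relative TFS1, the gene of an inhibitor of carboxypeptidase Y, read 1.22, 0.91 and 0.62 (mean 0.91 ± 0.30, limma adjusted p = 0.00983). YHR033W stood above PRO1 on every array, whereas in the other pairs both genes were higher. The rule requires positive values of the members, so it largely fixes the first result and the members' side of the second. Only the values of the named partners were not set by the rule. No difference between partners was tested.

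YOR389W and YPL277C are near-copies of each other in duplicated blocks near chromosome ends, and earlier work listed both as genes whose expression changes with copper levels. YOR389W read 1.25, 1.23 and 0.90 (mean 1.13 ± 0.20), and YPL277C read 1.45, 1.11 and 0.24 (mean 0.93 ± 0.63). The pair can share hybridisation, so the readings need not be independent. Next to YOR389W lies FEX1, a fluoride exporter gene, at 0.57, 0.72 and 0.61 (mean 0.64 ± 0.08, limma adjusted p = 0.0188). FEX2, its counterpart in the block of YPL277C, read 0.34, 0.12 and 0.70 (mean 0.39 ± 0.29, limma adjusted p = 0.116). Between FEX2 and YPL277C, YPL278C had 0.48 and 0.99 on arrays 2 and 3 and no value on array 1. YOR387C, on the far side of FDH1 from YOR389W, had 1.29 and -0.19 on arrays 2 and 3 and no value on array 1.

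YGL193C, a gene known as haploid-specific because the a1-alpha2 repressor shuts it off in diploid cells, read 0.85, 1.11 and 0.85 (mean 0.94 ± 0.15). Its neighbour IME4, an RNA methyltransferase gene of the meiotic programme on the other strand, read -0.12, -0.19 and -0.21 (mean -0.17 ± 0.04, limma adjusted p = 0.393). The 3 ratios of YGL193C all lay above those of IME4. The rule requires a positive value of YGL193C on every array, which largely fixes this order. PAC10, which shares an upstream space of at most 500 bases with YGR079W, read 1.04, 0.46 and 0.33 (mean 0.61 ± 0.38, limma adjusted p = 0.0423). PAC10 was thus higher on every array, which the rule requires of YGR079W.

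Among the genes that were lower after copper, those of unassigned role again gave the largest means. YLR257W read -1.33, -1.18 and -1.47 on arrays 1, 2 and 3, a mean of -1.33 ± 0.14 or 2.51-fold lower, and its low-power scans gave -1.20 and -1.51 on arrays 2 and 3. YOL014W read -2.16, -1.15 and -0.67 (mean -1.33 ± 0.76), and YDL129W read -1.82, -1.12 and -1.02 (mean -1.32 ± 0.43). These 3 genes had nearly the same mean but unlike spreads, which were widest in YOL014W. YGR237C read -1.17, -1.19 and -1.21 (mean -1.19 ± 0.02 or 2.28-fold lower), the smallest SD of the 39 genes. YNL050C read -1.77, -0.99 and -0.48 (mean -1.08 ± 0.65).

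The remaining lower genes of unassigned role had means between -0.90 and -0.81. YBL086C read -0.40, -1.40 and -0.90 (mean -0.90 ± 0.50). YDL241W read -0.86, -1.35 and -0.40 (mean -0.87 ± 0.48), and YKR005C read -1.93, -0.41 and -0.24 (mean -0.86 ± 0.93). YKR005C was the exception to the calls above, with a limma adjusted p of 0.0706, and its mean was -0.32 without array 1. YAR066W read -0.99, -1.40 and -0.17 (mean -0.85 ± 0.62), YMR265C read -1.11, -0.45 and -0.87 (mean -0.81 ± 0.34), and YER186C read -1.13, -0.84 and -0.44 (mean -0.81 ± 0.35). In each of these 6 genes at least 1 array lay within 0.5 of 0.

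Lower genes with a recognisable family covered signalling, metabolism and heme proteins. YPL150W, which encodes a putative protein kinase, read -0.77, -0.61 and -1.43 (mean -0.94 ± 0.43). YNL234W, a globin-like heme protein gene, read -1.15, -1.16 and -0.64 (mean -0.98 ± 0.30), and YJL218W, a relative of bacterial acetyltransferase genes, read -0.90, -1.90 and -0.60 (mean -1.13 ± 0.68). YPL150W was lowest on array 3, where YNL234W and YJL218W were closest to 0. YOR111W, of the Maf protein family, read -1.65, -0.76 and -0.52 (mean -0.97 ± 0.60), and YIL001W, whose product carries a BTB/POZ domain, read -0.41, -1.20 and -0.92 (mean -0.84 ± 0.40).

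YLR345W, similar in sequence to the enzymes that make fructose 2,6-bisphosphate, read -0.86, -1.23 and -0.90 (mean -0.99 ± 0.20). Of the named enzyme genes it resembles, PFK27 read -0.92, -0.68 and -0.50 (mean -0.70 ± 0.21, limma adjusted p = 0.0181) and PFK26 read 0.14, -0.37 and -0.09 (mean -0.11 ± 0.25, limma adjusted p = 0.645). PFK27 was lower on every array and PFK26 was not. YER158C read -1.06, -0.79 and -1.41 (mean -1.09 ± 0.31), and AFR1, the duplicate of YER158C that acts in the response to mating pheromone, read -0.57, -0.45 and -0.77 (mean -0.60 ± 0.16, limma adjusted p = 0.0257). Both genes of this pair were lowest on array 3.

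YAR066W and YAR068W are neighbours near an end of chromosome I, lie on the same strand, and had opposite signs. YAR068W read 1.22, 1.56 and 0.70 (mean 1.16 ± 0.43), whereas YAR066W stood at a mean of -0.85, as given above. Both are members, so the rule itself places their values on opposite sides of 0 on every array. Each has a similar frame on chromosome VIII. YHR214W, the counterpart of YAR066W, read -0.29, -0.24 and -0.12 (mean -0.22 ± 0.09, limma adjusted p = 0.292), and cross-hybridisation between such copies was not tested.

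Neighbouring genes are a property that the rule did not use, and they were taken from the order and strand of genes in the yeast gene table (assembly R64). The adjacent gene met the same rule of sign and size, in the direction of the member, for 5 of 39 members (12.8%), against 30 of 373 genes with a systematic name only (8.04%) and 405 of 4819 tested genes with a place in that table (8.40%). It met the rule in the opposite direction for 4 members (10.3%), against 5.90% and 4.84%. These shares are small counts and carry no test. Adjacent genes had a median ratio of 0.22 beside higher members (32 adjacent genes tested) and -0.03 beside lower ones (29 tested). The median of all tested genes was -0.04, so the value beside lower members was close to that of all genes. No difference between these medians was tested.

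The members with a neighbour of like sign were mostly higher. PHO4, the activator gene of the phosphate response, read 1.50, 1.51 and 0.78 beside YFR035C, and PLN1, a lipid droplet protein gene, read 1.41, 1.33 and 1.20 beside YKR045C. PIH1, a gene for a factor of small nucleolar RNP assembly, read 0.74, 0.73 and 1.06 beside YHR033W, and the pair of YLR179C and TFS1 is described above. These neighbours all met the rule upward, which itself requires a positive value on every array. REE1, known as a target of Mac1, read -2.58, -2.08 and -2.05 (mean -2.24 ± 0.30) immediately downstream of YJL218W on the same strand. YJL218W was the less changed of the pair on every array.

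Opposite signs occurred in the pair of YAR066W and YAR068W and between genes that converge. DIP5, the permease gene for acidic amino acids, read -1.23, -0.76 and -0.88 beside YPL264C, and PUG1, a gene for a heme and porphyrin transporter, read 1.84, 2.02 and 1.16 beside YER186C. These neighbours were picked for meeting the rule in the opposite direction, which fixes opposite signs on every array. With the spot strand not given in the sources used here, sense and antisense transcripts of overlapping genes cannot be told apart. Overlap with an adjacent gene in the table was found for 3 members, or 7.69%, against 66 of 373 genes with a systematic name only (17.7%) and 2.82% of tested genes. These were YFR035C, whose overlapping frame has no spot, YMR316C-A and YOR105W. YMR316C-A, on the strand opposite to DIA1, read 1.60, 1.29 and 0.55, while DIA1, which it overlaps, read -0.18, -0.27 and 0.04 (mean -0.13 ± 0.16, limma adjusted p = 0.532). YOR105W overlaps PIN2, which read 0.40, -0.03 and 0.86 (mean 0.41 ± 0.44, limma adjusted p = 0.143).

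**Figure D2:**
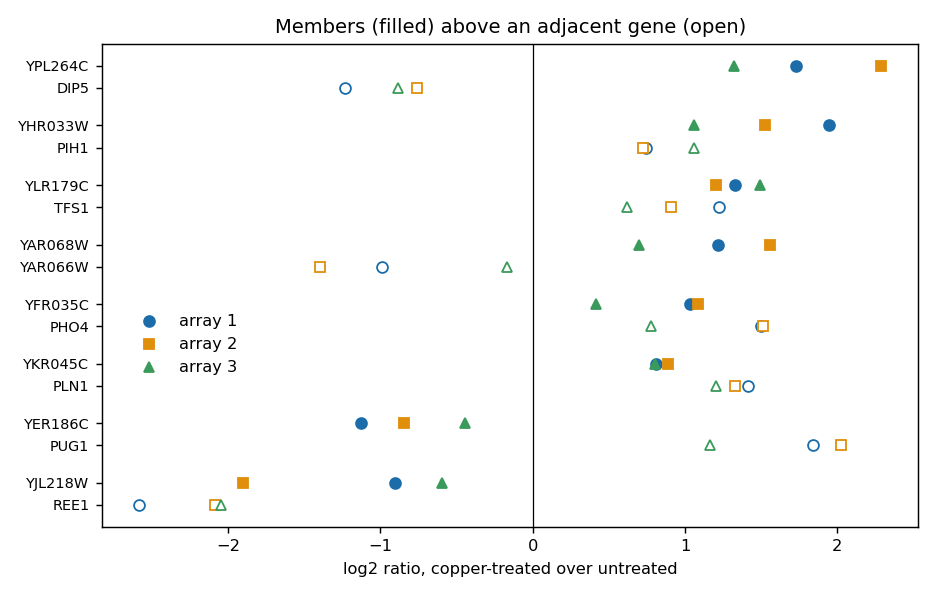
Log2 ratios of copper-treated over untreated cells on each array for the 8 pairs of a member (filled symbols) and an adjacent gene that met the same rule of sign and size (open symbols, the row below). The pairs led by YPL264C, YAR068W and YER186C lie on opposite sides of 0, and the other 5 on the same side.

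The rule used the values of all 3 arrays, so the spread of the members is set beside that of the other genes that met the same rule of sign and size, as a description. The members' median SD over 3 arrays was 0.40, against 0.32 for those 371 genes, and the members' SD ranged between 0.02 in YGR237C and 1.33 in YOL162W. In 27 of the 39 members (69.2%) array 3 had the smallest ratio in size, and in 17 of the 21 higher ones, against 223 of 371 other genes that met the same rule (60.1%). Median sizes of the members were 1.17, 1.19 and 0.87 on arrays 1, 2 and 3, against 1.09, 1.22 and 0.88 for the 371 other genes. A ratio of at least 0.8 in size on every array was held by 12 of the 21 higher and 4 of the 18 lower members. On at least 1 array, 3 higher members and 8 lower members lay within 0.5 of 0. Neither of these counts is set beside the other 371 genes here, so they describe the members alone.

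Choosing members on 2 arrays leaves the third as a measurement that the choice did not use. Members rechosen on arrays 1 and 2 numbered 63, and array 3 gave the same sign for 57 of them (90.5%), with 20 (31.7%) at 0.8 or more in that direction and a median of 0.55 there. Genes with another name chosen in the same way kept their sign on array 3 in 511 of 540 cases (94.6%). Of these 540, 189 (35%) were at 0.8 or more in that direction on array 3. Of all tested genes with 1 sign on arrays 1 and 2 at any size, 78.0% kept it on array 3. Among those with a systematic name only, the share was 84.3%. The 6 genes that lost the sign, YBR013C, YBR138C, YMR085W, YNL143C, YNL195C and YNR071C, were all higher on arrays 1 and 2 and lay between -0.08 and -0.03 on array 3. Held-out arrays 1 and 2 kept the sign of 39 of 40 and 34 of 36 rechosen members, against 97.2% and 96.5% for genes with another name. For genes of 1 sign at any size, the shares on arrays 1 and 2 were 85.2% and 81.5% over all genes. They were 88.6% and 81.5% over genes with a systematic name only. The arrays share their dye orientation and their spots, so these shares carry no p.

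Low-power scans were made to recover spots too bright for the scanner, and fewer members than other genes had values there, a count with no test. On array 2, 12 of 39 members (30.8%) had a low-power value, against 192 of 373 genes with a systematic name only (51.5%) and 55.7% of all tested genes. Spot brightness is not part of the table, so its part in this difference was not tested. The rule used the mean of both scans of array 2, so their likeness in members is a description: all 12 members had the same sign on both, with a median gap of 0.09, against 87.5% of 2642 tested genes and a median gap of 0.12. The low-power scan of array 3, which the submitters set aside for quality and which the rule did not use, held 24 members, and 21 of them kept their sign (87.5%), against 82.3% of 3896 tested genes. The exceptions were YFR018C at -0.08 against 0.60 on the high-power scan, YNL234W at 0.01 against -0.64, and YOR111W at 0.12 against -0.52. On the high-power scan of array 3, which the rule did use, the median size was 0.90 in these 24 members and 0.30 in the 3896 genes. The shares that kept their sign are thus of ratios of unlike size and are not a like comparison. Both scans came from 1 hybridisation and are not replicates.

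**Figure D3:**
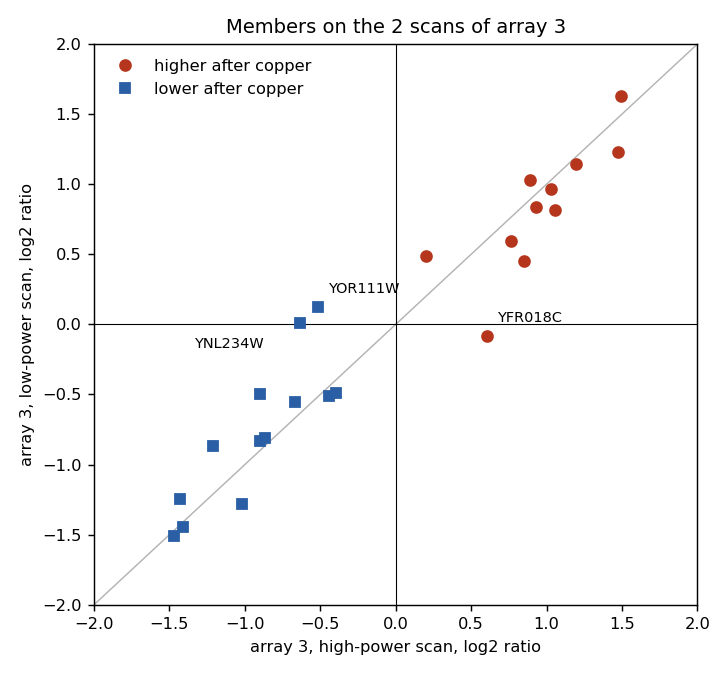
Log2 ratios of 24 members on the low-power scan of array 3 (vertical axis) against its high-power scan (horizontal axis), with circles for members higher and squares for members lower after copper; the grey line marks equal values. The 3 named genes lie across 0 from their high-power value.

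Gene length is another property that the rule did not use. Higher members had a median length of 675 bases, against 1123.5 for lower members, 1047 for all tested genes with a systematic name only and 1242 for all tested genes. Lengths under 500 bases were found in 6 of 21 higher members (28.6%) and 2 of 18 lower ones (11.1%), against 16.1% and 9.83% in those wider sets. Each array was therefore also corrected for length with a loess fit over all genes with a value on it. After correction all 39 members kept their sign and 31 still met the rule. Those that no longer met it included 4 of the shortest higher members: YMR316C-A (mean 0.80 after correction, just under the limit), YGL193C (0.59), YOR105W (0.60) and YFR035C (0.55). The others were YKR045C, YER186C, YMR265C and YIL001W, at sizes between 0.75 and 0.79. YIL014C-A, as short as these, stood at 1.26, and the means of YPR078C and YPL264C were 2.08 and 1.83.

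**Figure D4:**
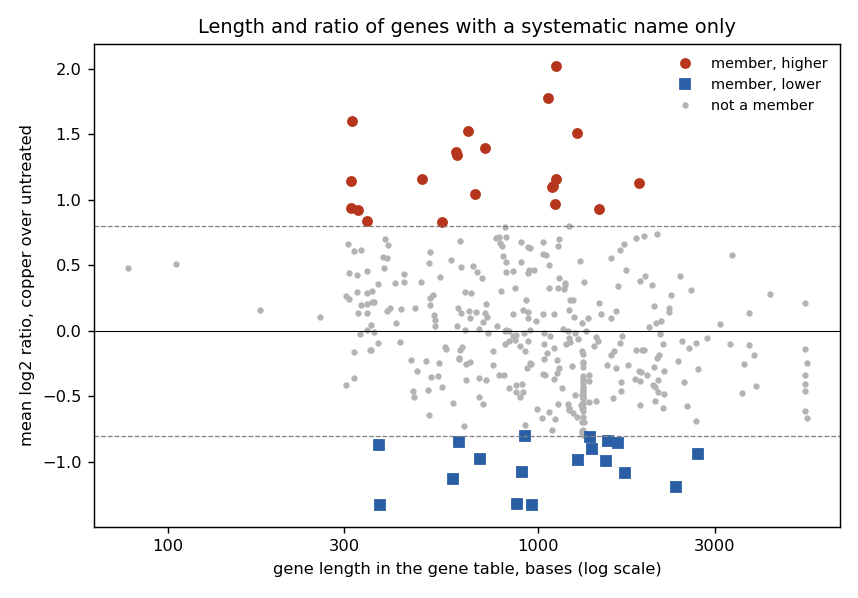
Mean log2 ratio of copper-treated over untreated cells (vertical axis) against gene length in bases on a log scale (horizontal axis) for the 373 genes with a systematic name only, with circles for higher members, squares for lower members and grey points for the rest. Dashed lines stand at 0.8 and -0.8; the higher members have a median length of 675 bases and the lower ones of 1123.5.

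Gene lists, most of which also hold genes with another name, were read against the 11.5% of all tested genes that limma called higher and the 12% it called lower. Of 10 tested genes in a list of reductases, 4 were called higher by limma and 1 lower, with a median of 0.33, against -0.04 for all tested genes. Of the 4, YML131W alone is among the 39 members. YNL134C, an aldehyde reductase gene, read 0.45, 0.91 and 0.58 (mean 0.65 ± 0.24), whereas YLR460C, of the same dehydrogenase family, read -0.50, -0.79 and -0.37 (mean -0.55 ± 0.22). Of 4 tested genes for small cysteine-rich proteins, 2 were called higher and 0 lower (median 0.43), with CPP1 at 0.41, 0.91 and 0.45. Only 1 of the 4 still has a systematic name only, so the other 3 could not be members. Of 12 tested frames of the Y' elements, repeats next to the telomeres, limma called 0, 1 had an unadjusted p under 0.05, and the median was 0.04. Of 15 genes listed as stress-induced, 2 were called higher and 2 lower (median -0.08). Only 6 of the 15 still have a systematic name only, and 0 of these 6 were members, while HPF1 (1.00, 1.49 and 1.35), RGI1 (-0.89, -1.33 and -1.21) and TMC1 (-0.59, -1.74 and -0.75) met the limits of sign and size but have other names.

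The limit of 0.8 cuts through a continuous range. Just inside it on the upper side lay YKR045C, YFR035C and YOR105W, and just outside lay YJL193W (0.74, 1.10 and 0.55, mean 0.80), YNL108C (0.70, 0.92 and 0.75, mean 0.79) and YIL108W (0.76, 0.96 and 0.50, mean 0.74). YJL193W missed the limit only in the next decimal. On the lower side YER186C, YMR265C and YIL001W lay just inside, and YDR210C-C (-0.90, -0.87 and -0.61, mean -0.79), YBL100W-A (-0.55, -0.76 and -1.03, mean -0.78) and YCL020W (-0.48, -1.25 and -0.57, mean -0.77) just outside. The last 3 are Gag frames of Ty retrotransposons, which exist in many near-identical copies.

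Missing values also shaped the group. Of 71 genes with a systematic name only that lacked a value on some array, 22 had values on 2 arrays and 49 on 1. Among those with 2 values, YPL068C read 1.19 and 1.12 and YBR184W read 4.89 and 0.19 on arrays 2 and 3, and both would have met the sign and size limits on those arrays. The values of YPL068C lay close together, and those of YBR184W were far apart.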

How the data were processed

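Each of 5 scans of 3 two-colour arrays gave a column of log2 ratios in the deposited table. The authors normalized them by LOWESS, using the spots whose flag was 0, as the labels state. The lowest value, -6.64, equals log2 of 0.01, which settled the log base. The sources used here name no scanner, image software or background treatment. Array 1 was its single scan, array 2 the mean of both scans (or the 1 with a value), and array 3 its high-power scan. Probes were named through the platform annotation and the yeast gene table (R64), and probes of a gene were averaged. Every member had 1 probe. Whether each array had its own control culture is not stated, so a p-value covers only the spread among the 3 arrays. limma 3.58.1 in R 4.3.3 (lmFit, eBayes, two-sided) tested means against 0, with Benjamini-Hochberg adjustment over 4824 genes and a threshold of 0.05, and was tested on simulated data. Errors are SDs. Length correction used loess with a span of 0.4 and degree 1.

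Members, gene lists, the rule for naming genes and the alternatives were chosen with earlier results of these data known. All members are named, with some of their adjacent genes and, after their values were seen, related genes. Planned counts of promoter motifs and protein composition were not made, as no sequence was used here.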

Additional observations from a re-analysis of the deposited data

How the results depend on the processing

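All 39 members kept the sign of their mean under every setting in which they had a value: each scan alone for array 2 (12 members with the low-power scan), both scans averaged for array 3, centring, scaling, length correction, array weights and each array left out. The rule asks for 1 sign on all 3 arrays, which fixes this outcome for scaling, array weights and each array left out. It also largely fixes it for the other settings, so the kept signs are a description. The number of members was 39 (21 higher, 18 lower), and 13 (8 and 5) where array 2 was its low-power scan, with 2686 genes tested, and 22 (15 and 7) with a size of at least 1. With an array left out it lay between 36 and 63, with 21 to 37 higher and 15 to 26 lower; the highest numbers came without replicate 3, when 37 of the 39 were among the 63. Other settings gave 34 to 54. Of all 4824 genes, limma called 1134 (556 higher, 578 lower), and between 397 and 1225 with an array left out (226 to 584 higher, 171 to 641 lower). The fewest were called without replicate 2, and 521 (272 and 249) without replicate 1, from a fit in which all genes shared a single variance. The low-power scan alone for array 2 gave 349 lower calls. Of the 39 members, limma called 28 without replicate 2, 32 without replicate 1, all 39 without replicate 3 or with array weights, and 37 with a robust variance, settings that called 1225, 1616 and 1154 of all genes. The cause of these differences was not tested. Members that overlap an adjacent gene, or share an upstream space of at most 500 bases with one, numbered 7 (all higher; 17.9%, against 32.4% of genes with a systematic name only and 26.9% of all tested), and 13 with 1000 bases (33.3%, against 45.8% and 44.8%). The sign was kept on a held-out array by 94.1% of rechosen members on average over the 3 arrays, and by 90.5% to 97.5% on single arrays. The number of members with a promoter motif was not counted.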

Other observations

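Frames of Ty retrotransposons mostly stood below 0. Chosen after the plot of length was seen, 30 of the 373 genes with a systematic name only had lengths of 1311 to 1323 bases, and apart from YNR066C these are Gag frames of Ty elements, which package the element's RNA. Of the 30, 29 had a mean below 0, with a median of -0.49, a lowest value of -0.79 in YDR210C-C and a highest of 0.06 in YOR192C-A. Their medians were -0.46, -0.56 and -0.41 on arrays 1, 2 and 3. limma called 17 of them, all lower, against 56 of the 373 genes (these frames included) and 12% of all tested genes called lower, and none reached a size of 0.8. The 8 frames of 5269 to 5314 bases are the Gag-Pol frames of such elements, and 7 of them lay below 0 (median -0.37); YBL005W-B was the exception at 0.21. Near-identical copies can hybridise to each other's spots, so these are not independent readings, and the part of cross-hybridisation was not tested.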
